A study of Mus musculus with 12 samples.

Results

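The 148 genes described here are the measured mouse genes whose symbol is Zfp followed by a 3-digit number of 600 or more, with or without a trailing letter. They were taken from probe sets assigned to 1 gene each, with the probe set of highest mean signal standing for a gene that had several, and they are 148 of 19938 genes measured in this way. No filter on low signal was applied, and 37 further RefSeq genes in the same number range lacked a single-gene probe set and were not analysed here. The range was picked around Zfp943, which was chosen by its measured levels because they separated the competent lines from the others, so its values are given below as a description with no test, and every count of genes past a threshold is over the other 147.

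The study profiled 4 mouse induced pluripotent stem (iPS) cell lines, cells returned from a differentiated to a pluripotent state by introduced factors, with 3 biological repeats per line on 12 whole-transcript arrays. All 4 lines came from C57BL/6J embryonic fibroblasts, were made with 3 reprogramming factors that the labels do not name, and were grown in embryonic stem cell medium. LiPS-45 and LiPS-57 are labelled as competent in tetraploid complementation, a test in which the whole embryo must come from the injected cells, and LiPS-47 and LiPS-50 as not competent. Each line stands for itself, competence is represented by 2 lines on each side, and the labels do not say whether the repeats were separate cultures, so the p-values measure the spread between these samples. Values are log2(intensity + 1), called levels below and listed for repeats 1, 2 and 3 in that order. A level depends on the probe set as well as on the transcript, so levels are compared between lines and not between genes.

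Genes named Zfp encode proteins with zinc fingers, small domains that mostly bind DNA, and many of those in this number range carry a KRAB domain. KRAB zinc finger proteins bind defined DNA sequences, often within transposable elements, and recruit the corepressor Trim28, which brings the histone methyltransferase Setdb1 and heterochromatin proteins to the site. In pluripotent cells this system keeps endogenous retroviruses silent. The genes multiplied by duplication and lie in clusters of similar copies on several mouse chromosomes.

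The largest differences among these genes came from a cluster on chromosome 4, so the bases before the start of its measured members are shown first. Windows of 250 bases before the gene start were available for 128 of the 148 genes from RefSeq (assembly GRCm38.p6). Zfp980 lies at chr4:145670447-145670696 on the plus strand, Zfp600 at chr4:146156577-146156826 on the plus strand (the first of its listed windows), Zfp979 at chr4:147642509-147642758 on the minus strand and Zfp985 at chr4:147553027-147553276 on the plus strand. The window of Zfp943, at chr17:21962309-21962558 on the plus strand, is printed with them as the gene singled out for competence. Each sequence runs 5′ to 3′ on the gene's strand, and CG dinucleotides are in capitals.
Zfp980: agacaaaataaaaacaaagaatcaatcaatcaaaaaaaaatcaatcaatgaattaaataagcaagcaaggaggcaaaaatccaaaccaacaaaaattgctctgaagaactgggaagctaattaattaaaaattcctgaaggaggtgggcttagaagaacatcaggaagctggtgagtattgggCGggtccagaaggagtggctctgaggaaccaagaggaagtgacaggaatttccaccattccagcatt
Zfp600: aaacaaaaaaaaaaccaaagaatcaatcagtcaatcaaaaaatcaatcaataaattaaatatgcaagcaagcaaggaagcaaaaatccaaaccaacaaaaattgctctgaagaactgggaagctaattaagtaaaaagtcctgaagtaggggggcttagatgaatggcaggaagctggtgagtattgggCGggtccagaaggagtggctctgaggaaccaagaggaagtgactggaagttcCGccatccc
Zfp979: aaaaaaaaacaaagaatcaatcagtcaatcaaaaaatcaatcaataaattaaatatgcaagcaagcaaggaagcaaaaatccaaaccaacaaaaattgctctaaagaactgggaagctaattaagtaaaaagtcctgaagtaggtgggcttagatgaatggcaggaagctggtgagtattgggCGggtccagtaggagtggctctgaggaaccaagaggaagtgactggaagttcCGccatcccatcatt
Zfp985: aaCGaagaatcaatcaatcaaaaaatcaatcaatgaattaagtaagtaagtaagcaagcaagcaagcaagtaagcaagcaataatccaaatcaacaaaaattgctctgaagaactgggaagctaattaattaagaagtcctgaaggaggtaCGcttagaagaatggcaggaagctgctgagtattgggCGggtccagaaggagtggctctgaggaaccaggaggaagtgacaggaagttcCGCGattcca
Zfp943: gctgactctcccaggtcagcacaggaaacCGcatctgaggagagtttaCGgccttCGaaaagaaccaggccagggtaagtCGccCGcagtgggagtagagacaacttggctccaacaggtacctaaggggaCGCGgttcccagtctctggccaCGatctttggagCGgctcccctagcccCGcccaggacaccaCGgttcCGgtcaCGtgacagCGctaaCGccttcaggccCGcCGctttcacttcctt
Zfp600 and Zfp979 were identical over 94.1% of aligned positions, Zfp980 and Zfp979 over 89%, and Zfp985 matched these over 79.6% to 81.2%. The other 2 measured members of the cluster with a window were unlike them, with 46.4% to 47.1% for Zfp982 and 49.7% to 51.2% for Zfp933 against the same 3 windows, close to the 49.3% between Zfp980 and Zfp943 on another chromosome. The windows held 1 CG dinucleotide in Zfp980, 2 in Zfp600, 2 in Zfp979, 5 in Zfp985 and 17 in Zfp943. Over the 128 windows the number ran from 1 to 48 with a median of 9, against a median of 12 in 172 genes named Zfp1 to Zfp599 and of 6 in 27025 genes of the table.

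A set of 4 short motifs was searched on both strands of the same windows. CCAAT was found in 53.1% of the 128 windows and in 34.5% of the 27025. GGGCGG was found in 43.8% and 32.9%, TTCCGG in 26.6% and 12.2%, and TATAAA in 3.12% and 13%. The windows of Zfp1 to Zfp599 held CCAAT in 39.5%, GGGCGG in 39.5%, TTCCGG in 30.8% and TATAAA in 8.14%. In each of the 4 chromosome 4 windows printed above, the only CCAAT match and the only GGGCGG match shared 2 bases. These matches describe the letters of the windows and nothing more.

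The medians of the arrays lay close together, and the markers of pluripotent cells were measured well above the lowest signals in every line. Medians of the 12 arrays differed by at most 0.0981 on the log2 scale, and the mean correlation between arrays of a line was 0.996 to 0.997. All 16 pluripotency markers, Pou5f1, Nanog and Sox2 among them, were measured with an intensity of at least 108, and their summed intensity was 24909 to 26330 over the 12 arrays. Of the 16, LiPS-50 was higher than each other line in Tbx3, Fgf4 and Dppa5a and lower than each in Lin28a, Sall4 and Tdgf1. In a comparison with LiPS-50, 43.8% to 50% of them passed, against 17.9% to 18.7% of all genes. LiPS-50 stood apart in markers of fibroblasts and feeder cells, which embryonic stem cell cultures often contain. Of 21 measured markers, 20 were higher in LiPS-50 than in each of the other lines, with median differences of -0.65, -0.67 and -0.82 for LiPS-45, LiPS-57 and LiPS-47 minus LiPS-50, and their summed intensity was 32997 to 36893 in LiPS-50 against 24133 to 28352 in LiPS-45, 24388 to 26095 in LiPS-57 and 20787 to 25530 in LiPS-47. None of these markers was at 0 in any line. Of the 10 endoderm markers, Pdgfra and Dab2 were higher and Foxa2 was lower in LiPS-50 in all 3 comparisons, with Foxa2 at 6.76, 6.35, 6.53 and 5.48 in LiPS-45, LiPS-57, LiPS-47 and LiPS-50. Sox7 passed against LiPS-45 alone, and Gata4, Gata6, Sox17, Afp, Ttr and Cxcr4 passed in no comparison with LiPS-50. The summed intensity of the 10 was 902 to 1013 in LiPS-50 against 638 to 796 elsewhere. Pdgfra, at 7.61, 7.50, 7.36 and 8.61 in the same order, weighs most in the LiPS-50 sum, which therefore does not describe the markers as a group. The part of these cells in the LiPS-50 values below was not tested, and more cells of a type cannot be told apart from more RNA per cell.

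Some of the zinc finger genes differed between LiPS-50 and the other lines, at shares near or below those of all genes. None of the 147 passed the threshold among the other 3 lines, where very few genes of any kind did. With limma on all 28939 probe sets (Benjamini-Hochberg adjusted p under 0.05), 30 of the 147 genes (20.4%) differed between LiPS-45 and LiPS-50, where 18.7% of the 19938 measured genes did. Between LiPS-57 and LiPS-50 there were 20 (13.6%, against 17.9% of all genes), and between LiPS-47 and LiPS-50 there were 15 (10.2%, against 18.3%). The share was close to that of all genes in the first comparison and below it in the last pair. Over the probe sets the shares were 16.5%, 15.6% and 15.8%. None of the 147 genes passed the limma threshold between LiPS-45 and LiPS-57 (0.251% of all genes; 11 had an unadjusted p under 0.05), between LiPS-45 and LiPS-47 (0.0502%; 22 unadjusted) or between LiPS-57 and LiPS-47 (0.15%; 10 unadjusted). The count of 30 fell to 18 without LiPS-45 repeat 2 or LiPS-50 repeat 2 and to 19 without LiPS-50 repeat 1. Shares of all genes without these arrays are not given, so the fall is not read as particular to the zinc finger genes.

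On the scale of the deposited values, higher and lower levels were about equal in number. In LiPS-50, 16 genes were higher and 14 lower than in LiPS-45 (9.59% and 9.1% of all genes), 10 higher and 10 lower than in LiPS-57 (9.32% and 8.59%), and 7 higher and 8 lower than in LiPS-47 (9.84% and 8.44%). The split depended on the scale: with each array centred on its median, LiPS-50 was higher in 6 and lower in 20 against LiPS-45, higher in 9 and lower in 13 against LiPS-57, and higher in 6 and lower in 10 against LiPS-47. Quantile normalization gave 11 and 16, 9 and 12, and 7 and 11. Shares of all genes on these other scales are not given, so these splits are not read as particular to the zinc finger genes. With median centring the median difference of LiPS-45 minus LiPS-50 rose over all probe sets too, from -0.00024 to 0.051. On the scale of the deposited values the median difference over the 147 genes was 0.063 for LiPS-45, 0.01 for LiPS-57 and 0.035 for LiPS-47 minus LiPS-50, beside -0.013, -0.0068 and 0.0083 over all genes. The 3 comparisons share the LiPS-50 arrays, so a gene far off in those arrays appears in each.

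**Figure D1:**
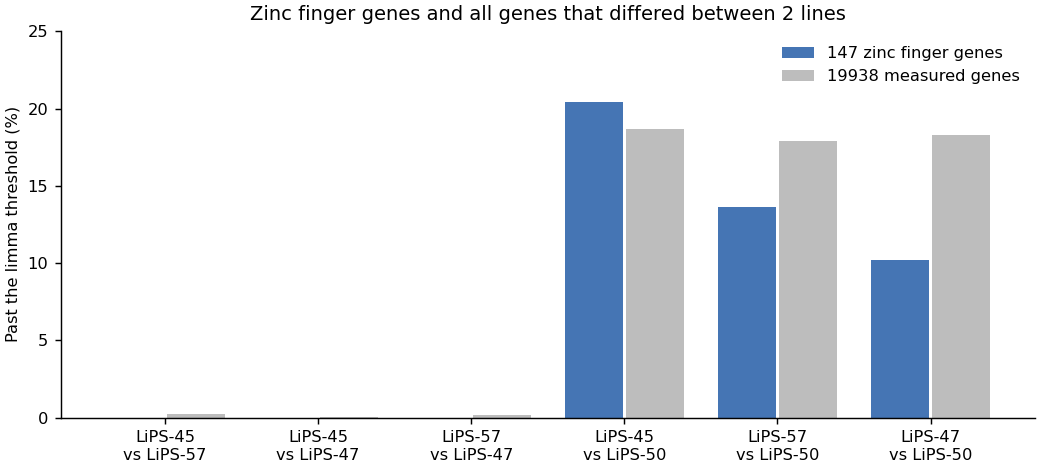
Percent of genes past the limma threshold (adjusted p under 0.05) in each of the 6 pairs of lines, for the 147 zinc finger genes (blue) and all 19938 measured genes (grey). The blue bars are at 0 in the 3 pairs without LiPS-50 and between 10.2% and 20.4% in the 3 pairs with it.

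In all 3 comparisons 7 genes were higher in LiPS-50 (4.76%, against 6.75% of all genes) and 7 were lower (4.76%, against 5.38%). Of the rest, 116 genes passed in none of the 3 comparisons, 11 in 1 and 6 in 2. The higher genes numbered 4 without LiPS-50 repeat 3, and the lower genes 4 without LiPS-45 repeat 3, LiPS-47 repeat 1, LiPS-50 repeat 1 or 3, or LiPS-57 repeat 2 or 3. Without any other single array there were 5 to 7 higher and 5 lower. Calls lost with only the 2 compared lines in the fit are listed in the closing section and mostly not repeated for each gene below.

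Among the 7 higher genes, Zfp980, Zfp600 and Zfp979 lie in the chromosome 4 cluster whose sequences are shown above. For Zfp980 the levels were 7.95, 7.92 and 8.32 in LiPS-45, 8.07, 8.02 and 8.21 in LiPS-57, 8.32, 8.21 and 8.52 in LiPS-47, and 9.26, 9.30 and 9.39 in LiPS-50. All 3 LiPS-50 values lay above the 9 others. LiPS-50 was 2.39-fold higher than LiPS-45, 2.33-fold higher than LiPS-57 and 1.95-fold higher than LiPS-47 (limma adjusted p = 1.37e-05, 2.14e-05 and 0.000113; SE 0.11 on the log2 scale). Zfp600, which opens the number range, had levels of 5.74, 6.16 and 6.44 in LiPS-45, 5.83, 5.95 and 6.17 in LiPS-57, 6.35, 5.94 and 6.52 in LiPS-47, and 7.19, 7.29 and 7.29 in LiPS-50. Again no value of another line reached LiPS-50, which was 2.21-fold, 2.42-fold and 1.98-fold higher than LiPS-45, LiPS-57 and LiPS-47 (limma adjusted p = 0.000774, 0.000407 and 0.00182; SE 0.171). Just below it in number, Zfp599 had line means of 7.45, 7.50, 7.51 and 7.33 and Zfp598 of 8.0, 8.04, 7.81 and 7.75 in LiPS-45, LiPS-57, LiPS-47 and LiPS-50.

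Zfp979 had levels of 7.71, 7.80 and 8.22 in LiPS-45, 7.96, 7.85 and 7.85 in LiPS-57, 8.32, 8.05 and 8.21 in LiPS-47, and 8.58, 8.50 and 8.88 in LiPS-50. The other lines did not overlap with LiPS-50, although LiPS-47 came close. The differences were 1.68-fold, 1.70-fold and 1.38-fold (limma adjusted p = 0.00247, 0.00223 and 0.0341; SE 0.133), and the last one missed the threshold when LiPS-47 repeat 2 or 3 or LiPS-50 repeat 1 or 3 was left out (adjusted p = 0.0618 to 0.134), with each array centred on its median (0.0573) and with the control probe sets included in the fit (0.0612). In all 3 genes repeat 3 was the highest of the LiPS-45 arrays.

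The cluster runs from Zfp990 to Zfp933 in RefSeq gene order and holds 77 genes, 15 of them in the number range, of which 7 were measured by probe sets of their own. Of these 7, 6 had their highest mean in LiPS-50. Zfp991 was 8.67, 8.66 and 8.91 in LiPS-45, 8.69, 8.75 and 8.59 in LiPS-57, 8.85, 8.77 and 9.02 in LiPS-47 and 8.94, 9.12 and 9.06 in LiPS-50. LiPS-50 repeat 1 lay below LiPS-47 repeat 3, and LiPS-50 was higher than LiPS-45 (1.23-fold, limma adjusted p = 0.0446) and LiPS-57 (1.29-fold, 0.0158), with 1.12-fold over LiPS-47 (0.284). The first of these was lost without any of 8 of the 12 arrays, with median centring, with the control probe sets and with a replicate block (adjusted p = 0.0517 to 0.143), and the second without LiPS-50 repeat 2 or LiPS-57 repeat 3 (0.0603 to 0.0647). Zfp982 passed against LiPS-45 alone, with means of 5.0, 5.03 and 5.04 in LiPS-45, LiPS-57 and LiPS-47 and 5.32 in LiPS-50 (1.25-fold, limma adjusted p = 0.0378), a call lost without any of 7 arrays (0.0506 to 0.135), with median centring, with quantile normalization and with the control probe sets (0.0594 to 0.0956). Zfp985, at 4.28, 4.31, 4.31 and 4.66, and Zfp933, at 6.06, 6.04, 5.88 and 6.05, passed in no comparison.

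Copies in this cluster are similar enough that probes can bind several of them, so the signal of a single gene there is uncertain. The array also carries 35 probe sets that list several genes including at least 1 of the range, and these were left out of the 148. Over all 28939 probe sets, 5.86% were higher in LiPS-50 in all 3 comparisons. All 6 that list genes of the chromosome 4 cluster, 5 to 13 genes each, were higher in LiPS-50 than in every other line, by 1.28-fold to 1.97-fold (limma adjusted p = 1.32e-05 to 0.00387). These 6 share many of their listed genes and do not count as separate observations. The probe set with the largest difference lists Rex2, Zfp981, Zfp980, Zfp600, Zfp987 and Zfp979 and had means of 10.27, 10.22 and 10.43 in LiPS-45, LiPS-57 and LiPS-47 and 11.20 in LiPS-50. A further 2 list Zfp640 and 2 list Zfp772, and all of these were higher in LiPS-50 in the 3 comparisons, whereas 0 of the remaining 25 were higher in all 3. The probe set of Zfp772 alone was not among the 7 higher in all 3.

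**Figure D2:**
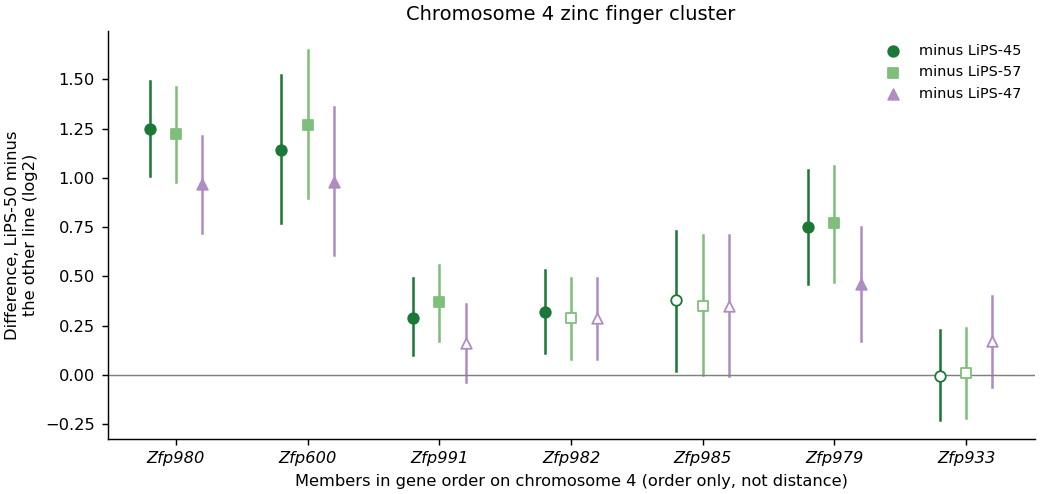
Difference in level, LiPS-50 minus each other line (log2), for the 7 measured members of the chromosome 4 cluster in gene order. Points are limma estimates, bars their 95% confidence intervals, and filled points passed the threshold; Zfp980, Zfp600 and Zfp979 are filled for all 3 lines, and Zfp933 lies at 0 for LiPS-45 and LiPS-57.

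Zfp640 was not matched to the RefSeq gene table, so no chromosome is given for it. Its levels were 6.50, 6.50 and 7.0 in LiPS-45, 6.27, 6.62 and 6.37 in LiPS-57, 6.64, 6.39 and 6.83 in LiPS-47, and 7.59, 7.46 and 7.37 in LiPS-50. LiPS-50 was above every other array, by 1.75-fold, 2.07-fold and 1.81-fold on average (limma adjusted p = 0.00283, 0.000557 and 0.00179; SE 0.148). Its other 2 probe sets passed in the same direction in all 3 comparisons, as did the 2 that list it with 2410141K09Rik, by 1.76-fold to 2.22-fold.

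Zfp951, on chromosome 5, gave a weak signal, with levels of 3.79, 3.32 and 3.86 in LiPS-45, 3.48, 3.68 and 4.19 in LiPS-57, 3.78, 4.0 and 3.37 in LiPS-47, and 4.18, 4.62 and 5.03 in LiPS-50. LiPS-50 repeat 1 and LiPS-57 repeat 3 overlapped. The differences were 1.94-fold, 1.78-fold and 1.86-fold (limma adjusted p = 0.0172, 0.0348 and 0.0239; SE 0.24), and each missed the threshold in some fits with 1 array left out. The call against LiPS-45 was lost without LiPS-45 repeat 2 or LiPS-50 repeat 3 (adjusted p = 0.067 to 0.0699), that against LiPS-57 without LiPS-57 repeat 1 or 2 or LiPS-50 repeat 2 or 3 (0.0821 to 0.134), and that against LiPS-47 without LiPS-47 repeat 1 or 3 or LiPS-50 repeat 2 or 3 (0.0542 to 0.0981). That against LiPS-57 was also lost with the control probe sets included (0.0668).

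Zfp750, on chromosome 11, encodes a regulator of epidermal differentiation. Its levels were 5.96, 5.96 and 5.86 in LiPS-45, 5.75, 5.93 and 5.88 in LiPS-57, 5.85, 6.07 and 5.78 in LiPS-47, and 6.34, 6.29 and 6.27 in LiPS-50. The LiPS-50 arrays were close together and above all others, 1.29-fold, 1.36-fold and 1.32-fold higher than LiPS-45, LiPS-57 and LiPS-47 (limma adjusted p = 0.00767, 0.00272 and 0.00472; SE 0.0801).

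Zfp809, on chromosome 9, encodes a KRAB zinc finger protein that silences murine leukaemia proviruses in embryonic stem cells. Its levels were 8.05, 8.04 and 8.10 in LiPS-45, 7.86, 7.87 and 7.94 in LiPS-57, 8.0, 7.90 and 7.93 in LiPS-47, and 8.31, 8.23 and 8.23 in LiPS-50. LiPS-50 again lay above the 9 other arrays, but the differences were small, at 1.14-fold, 1.29-fold and 1.24-fold (limma adjusted p = 0.0344, 0.00103 and 0.00232; SE 0.0561). The difference from LiPS-45 missed the threshold when any one of the LiPS-45 or LiPS-50 arrays was left out (adjusted p = 0.0604 to 0.113) and with median centring (0.164).

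The 7 genes lower in LiPS-50 were spread over 5 chromosomes and differed by at most 1.49-fold. Zfp940, on chromosome 7, had levels of 6.62, 6.29 and 6.69 in LiPS-45, 6.67, 6.66 and 6.51 in LiPS-57, 6.71, 6.46 and 6.54 in LiPS-47, and 6.07, 6.08 and 5.97 in LiPS-50. The LiPS-50 values were below all others, 1.41-fold, 1.49-fold and 1.45-fold lower than LiPS-45, LiPS-57 and LiPS-47 (limma adjusted p = 0.00564, 0.00252 and 0.00342; SE 0.102).

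Zfp608 and Zfp609 are paralogues, and Zfp609 is known as a partner of the cohesin loader Nipbl in neural progenitors. For Zfp608, on chromosome 18, the levels were 7.33, 7.31 and 7.28 in LiPS-45, 7.22, 7.19 and 7.23 in LiPS-57, 7.12, 7.36 and 7.23 in LiPS-47, and 6.82, 6.65 and 6.75 in LiPS-50. The groups did not overlap, and LiPS-50 was 1.48-fold, 1.39-fold and 1.41-fold lower (limma adjusted p = 0.000184, 0.000736 and 0.00047; SE 0.0694). For Zfp609, on chromosome 9, they were 8.14, 8.12 and 8.06 in LiPS-45, 8.24, 8.17 and 8.07 in LiPS-57, 8.0, 8.09 and 8.12 in LiPS-47, and 8.0, 7.58 and 7.72 in LiPS-50. Here LiPS-50 repeat 1 equalled LiPS-47 repeat 1 to 2 decimals. The differences were 1.27-fold, 1.31-fold and 1.24-fold (limma adjusted p = 0.0271, 0.0139 and 0.0457; SE 0.0942), and each missed the threshold in some fits with 1 array left out. The difference from LiPS-47 missed the threshold without any one array other than LiPS-50 repeat 1 (adjusted p = 0.0525 to 0.162), that from LiPS-45 without any LiPS-45 array or LiPS-50 repeat 2 or 3 (0.0557 to 0.102), and that from LiPS-57 without LiPS-57 repeat 1 or LiPS-50 repeat 2 (0.0519 to 0.0584). The difference from LiPS-47 was also lost with the control probe sets (0.0721) and with a replicate block (0.0558).

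Zfp653, on chromosome 9, encodes a transcriptional repressor. Its levels were 7.32, 7.33 and 7.39 in LiPS-45, 7.28, 7.37 and 7.37 in LiPS-57, 7.39, 7.20 and 7.35 in LiPS-47, and 7.0, 7.05 and 7.07 in LiPS-50. LiPS-50 was below each of the 9 other arrays, by 1.24-fold, 1.23-fold and 1.21-fold on average (limma adjusted p = 0.00517, 0.0068 and 0.00972; SE 0.0625). The difference from LiPS-47 missed the threshold with LiPS-47 and LiPS-50 fitted alone (limma adjusted p = 0.0505).

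Zfp821 and Zfp882 lie on chromosome 8, and both were lower. Zfp821 had levels of 7.36, 7.29 and 7.32 in LiPS-45, 7.18, 7.37 and 7.21 in LiPS-57, 7.47, 7.16 and 7.33 in LiPS-47, and 6.87, 7.0 and 7.06 in LiPS-50. The lowest arrays of LiPS-57 and LiPS-47 came near LiPS-50 without crossing it. The differences were 1.28-fold, 1.21-fold and 1.27-fold (limma adjusted p = 0.0138, 0.0436 and 0.0149; SE 0.0847). The difference from LiPS-57 missed the threshold without any one array other than LiPS-47 repeat 1 or 2 (adjusted p = 0.052 to 0.161), that from LiPS-45 without LiPS-50 repeat 1 (0.0578) and that from LiPS-47 without LiPS-47 repeat 1 or LiPS-50 repeat 1 (0.0604 to 0.0651). The difference from LiPS-57 was also lost with the control probe sets (0.0669) and with a replicate block (0.0744). Zfp882 had levels of 6.41, 6.53 and 6.62 in LiPS-45, 6.48, 6.55 and 6.40 in LiPS-57, 6.44, 6.38 and 6.33 in LiPS-47, and 6.02, 6.16 and 6.19 in LiPS-50. The LiPS-50 arrays were the lowest 3 of the 12, 1.32-fold, 1.28-fold and 1.20-fold below the other lines (limma adjusted p = 0.00307, 0.0064 and 0.0306; SE 0.0735). The difference from LiPS-47 was lost without LiPS-47 repeat 1 or 2 or LiPS-50 repeat 1 or 2 (adjusted p = 0.0523 to 0.118).

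Zfp647, on chromosome 15, closed the group, with levels of 6.53, 6.45 and 6.52 in LiPS-45, 6.36, 6.47 and 6.62 in LiPS-57, 6.58, 6.50 and 6.52 in LiPS-47, and 6.21, 6.27 and 6.22 in LiPS-50. The groups did not overlap, and LiPS-50 was lower by 1.20-fold, 1.19-fold and 1.23-fold (limma adjusted p = 0.0184, 0.0258 and 0.00884; SE 0.0677). The difference from LiPS-45 was lost without LiPS-45 repeat 1 or 3 or LiPS-50 repeat 1 or 3 (adjusted p = 0.0555 to 0.0626), and that from LiPS-57 without LiPS-57 repeat 2 or 3 or LiPS-50 repeat 1 or 3 (0.061 to 0.104).

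**Figure D3:**
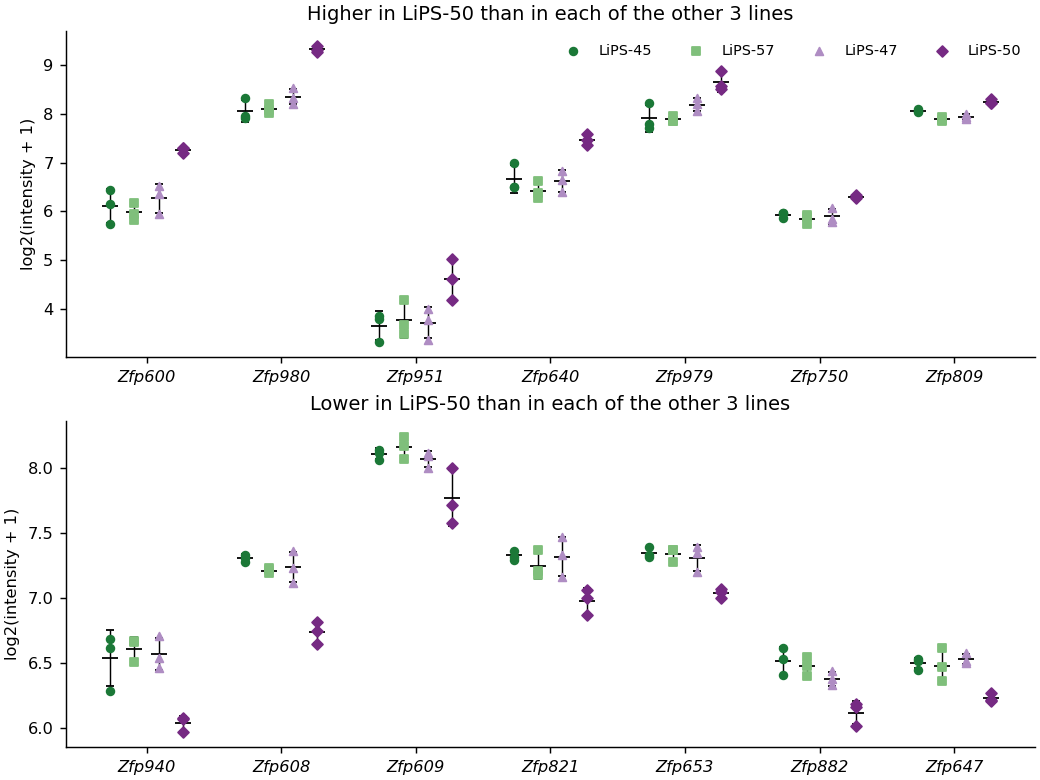
Levels, log2(intensity + 1), in the 3 repeats of each line for the 7 genes higher (top) and the 7 genes lower (bottom) in LiPS-50 in all 3 comparisons; points are arrays, horizontal ticks line means and bars 1 SD. LiPS-50 does not overlap with the other arrays in any but Zfp951, although in Zfp609 the nearest arrays are equal to 2 decimals, and the differences in the top panel reach 2.42-fold against 1.49-fold in the bottom panel.

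The promoter windows of the 2 groups differed in CG content as a description. In the 5 genes higher in LiPS-50 that had a window, the number of CG dinucleotides was 1 to 11 with a median of 2, and 3 of the 5 are the similar chromosome 4 copies. In the 4 lower genes with a window it was 8 to 20 with a median of 13, and in the 103 genes that passed against no line the median was 9.

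Over the 147 genes, 17 were higher and 14 lower in LiPS-50 in at least 1 comparison, where 13.1% and 12.7% of all genes were. By chromosome, the 9 genes on chromosome 4 included 3 higher in LiPS-50 in all 3 comparisons and 5 higher in at least 1, with 0 lower. Of the 14 on chromosome 8, 0 were higher and 5 lower in at least 1 comparison. Of the 36 genes on chromosome 7, the largest group, 4 were higher and 1 lower in at least 1, and of the 18 tested on chromosome 17, 2 were higher and 1 lower. None of the 11 genes on chromosome 13 or the 7 on chromosome 2 passed against LiPS-50. Differences between chromosomes were not tested. Some of the neighbours on a chromosome are near-identical copies and do not count as separate observations.

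**Figure D4:**
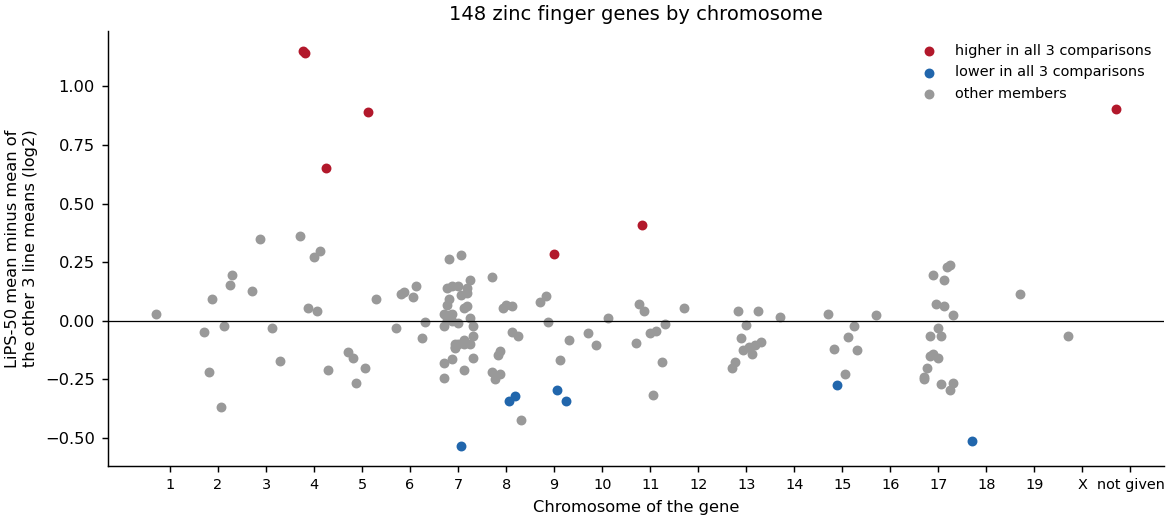
Mean level in LiPS-50 minus the mean of the other 3 line means (log2) for the 148 genes, arranged by chromosome; red and blue points were higher or lower in LiPS-50 in all 3 comparisons, and points are spread sideways only to be seen. Zfp980, Zfp600 and Zfp979 on chromosome 4 and Zfp640, which has no chromosome listed, are among the highest points, and the lowest, Zfp940, is 1 of the 36 on chromosome 7.

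Genes that passed in 2 comparisons added to both directions. Zfp704, on chromosome 3, was at 7.42, 7.34 and 7.24 in LiPS-45, 7.44, 7.41 and 7.08 in LiPS-57, 7.41, 7.42 and 7.39 in LiPS-47 and 7.85, 7.57 and 7.68 in LiPS-50. Each LiPS-50 array exceeded the others, and the difference passed against LiPS-45 (1.29-fold, limma adjusted p = 0.0253) and LiPS-57 (1.31-fold, 0.0188). The first call was lost without LiPS-45 repeat 2 or 3 or LiPS-50 repeat 1 or 3 (adjusted p = 0.0579 to 0.101) and with median centring (0.0561), and the second without LiPS-50 repeat 1 or LiPS-57 repeat 3 (0.0654 to 0.08). Zfp868, on chromosome 8, was lower in LiPS-50, relative to LiPS-45 (1.48-fold, 0.0052) and LiPS-57 (1.39-fold, 0.0141), with means of 6.49, 6.40, 6.17 and 5.93 in LiPS-45, LiPS-57, LiPS-47 and LiPS-50. The call against LiPS-57 was lost without LiPS-50 repeat 1 or LiPS-57 repeat 1 or 3 (adjusted p = 0.0518 to 0.0596). These 2 genes were chosen after their values were seen. Zfp827, whose human counterpart recruits the NuRD complex to telomeres, was lower than in LiPS-45 (1.23-fold, 0.0415) and LiPS-57 (1.23-fold, 0.0467). The first call was lost without any LiPS-45 array, LiPS-47 repeat 1 or 2, LiPS-50 repeat 2 or 3 or LiPS-57 repeat 3 (adjusted p = 0.0516 to 0.154), and the second without any one array other than LiPS-50 repeat 1 or LiPS-57 repeat 2 (0.0508 to 0.17). Both were lost with the control probe sets (0.0636 and 0.0735) and with a replicate block (0.0541 and 0.0606).

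The test for any difference among the 4 lines named no pair and passed for 20 of the 147 genes (13.6%, against 16.8% of all genes). This count was 12, 11 and 12 without LiPS-50 repeat 1, 2 or 3, with no share of all genes given beside it. The 3 LiPS-50 arrays lay above the 9 others in 10 genes (6.8%, against 10.3% of all genes) and below them in 12 (8.16%, against 10.7%). Among the 3 other lines, the lowest adjusted p was 0.255 for LiPS-45 against LiPS-57, in Zfp619, with means of 5.69 and 5.36. Zfp758 had the lowest for LiPS-45 against LiPS-47 (0.285, means 3.98 and 3.68) and for LiPS-57 against LiPS-47 (0.344, means 4.0 and 3.68).

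Zfp943, on chromosome 17, was the gene chosen because it separated the lines by competence. Its levels were 5.74, 5.69 and 5.69 in LiPS-45, 5.64, 5.80 and 5.68 in LiPS-57, 5.36, 5.41 and 5.32 in LiPS-47, and 5.30, 5.32 and 5.28 in LiPS-50. The 6 arrays of the competent lines spanned 5.64 to 5.80 and the 6 of the others 5.28 to 5.41, so the classes did not overlap, with a difference of 0.37 between their means (1.30-fold). LiPS-45 and LiPS-57 had means of 5.71 ± 0.0305 and 5.71 ± 0.0828, and LiPS-47 and LiPS-50 of 5.36 ± 0.0421 and 5.30 ± 0.021 (SD, n = 3). The choice of the gene favours lines of a class that lie close together, so these differences are not tested either.

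Competence as a whole called none of the 147 genes with the line as a random block in limma, nor any of the 28939 probe sets (0%). Of the 147, 21 genes had an unadjusted p under 0.05, where 7.85% of all genes did. In some of these 21 genes LiPS-50 alone stood apart and LiPS-47 lay near the competent lines. Zfp600 had means of 6.11, 5.98, 6.27 and 7.26 in LiPS-45, LiPS-57, LiPS-47 and LiPS-50, and Zfp640 of 6.66, 6.42, 6.62 and 7.47. In others it did not, as in Zfp758, at 3.98, 4.0, 3.68 and 3.91. How far LiPS-50 alone accounts for the 21 was not tested. Zfp961 and Zfp688 were the other 2 genes whose classes did not overlap. Zfp961, on chromosome 8, was 7.91, 7.82 and 7.92 in LiPS-45, 7.80, 7.82 and 7.86 in LiPS-57, 7.66, 7.77 and 7.72 in LiPS-47 and 7.58, 7.55 and 7.63 in LiPS-50, and 0.507% of all genes had every competent array above the others. Zfp688, on chromosome 7, was 6.56, 6.58 and 6.65, 6.66, 6.63 and 6.72, 6.79, 6.74 and 6.73, and 6.77, 6.93 and 6.78 in the same order, and 0.381% had every competent array below. Gaps between the classes were narrow, 7.80 against 7.77 and 6.72 against 6.73, and neither passed for competence (limma adjusted p = 0.648 for both).

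**Figure D5:**
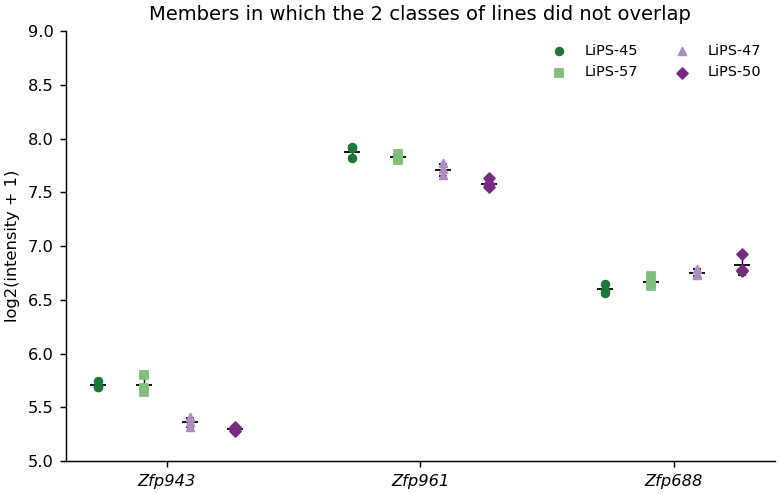
Levels, log2(intensity + 1), in each array for Zfp943, Zfp961 and Zfp688; points are the 3 repeats of a line, ticks line means and bars 1 SD. In Zfp943 the competent lines LiPS-45 and LiPS-57 sit at 5.64 to 5.80 and the others at 5.28 to 5.41, and in the other 2 genes the classes only just separate.

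Among the 20 measured genes up to 10 places to either side of Zfp943, 0 had every competent array above the others, a pattern that few genes of the array show at all. Zfp758, 3 places away, came to 3.98 and 4.0 in the competent lines, 3.68 in LiPS-47 and 3.91 in LiPS-50 and passed in no pair. Its neighbour Zfp942 ran down the lines at 6.88, 6.79, 6.65 and 6.51 in LiPS-45, LiPS-57, LiPS-47 and LiPS-50, and passed against LiPS-50 from LiPS-45 alone (1.29-fold, limma adjusted p = 0.0491), a call lost without any of 8 arrays (0.0567 to 0.188), with the control probe sets (0.0779) and with a robust prior (0.052). Zfp229, a gene below the number range and 3 places away, was at 5.37, 5.41 and 5.37 in the 3 other lines and at 6.80 in LiPS-50, higher in all 3 comparisons, and Zfp40, the last of the 20, was lower in all 3, at 5.94, 5.79, 5.76 and 5.40.

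Several well-studied members did not pass in any pair of lines. Zfp706, reported to restrain Klf4 as embryonic stem cells leave the ground state, had means of 10.40, 10.44, 10.49 and 10.42 in LiPS-45, LiPS-57, LiPS-47 and LiPS-50. Zfp819, a KRAB gene linked to retrotransposon control in embryonic stem cells, spanned 6.03 to 6.41 over the 12 arrays. Zfp708 spanned 4.37 to 4.99, with both ends in LiPS-50 and LiPS-47, and Zfp703, a developmental corepressor, 6.51 to 6.94. Zfp711, the only X-linked member, had means of 4.38, 4.43, 4.41 and 4.34, while the 739 X-linked genes had median differences of -0.16, -0.15 and -0.14 for LiPS-45, LiPS-57 and LiPS-47 minus LiPS-50. Over 19106 autosomal genes these medians were -0.0087, -0.0027 and 0.012.

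Zfp644, whose product works with the histone methyltransferases Ehmt1 and Ehmt2, was lower in LiPS-50 than in LiPS-45 (8.63 ± 0.136 against 8.90 ± 0.0811, SD, n = 3; 1.21-fold, limma adjusted p = 0.0355). That call was lost without LiPS-45 repeat 1 or 2 or LiPS-50 repeat 1 or 2 (0.0892 to 0.135), with the control probe sets (0.0524) and with a replicate block (0.0549). Zfp830, needed for early embryo survival, had means of 7.05, 7.03, 6.99 and 6.85 and passed in no pair, nor did Zfp652, at 8.16, 8.14, 8.12 and 8.21, or Zfp804a, at 4.23, 4.54, 4.45 and 4.50. The probe sets with the strongest signal besides Zfp706, those of Zfp664 and Zfp871, and those with the weakest, of Zfp804b, Zfp616 and Zfp735, also passed in none. Their line means spanned 8.94 to 9.10, 8.84 to 9.10, 3.20 to 3.38, 3.08 to 3.18 and 2.82 to 3.00 in that order. A second, weaker probe set of Zfp664 passed between LiPS-47 and LiPS-50 (1.19-fold lower in LiPS-50, limma adjusted p = 0.0186). In the other 7 tested genes with several probe sets all of them gave the same calls against LiPS-50. For Zfp640 these were calls in all 3 comparisons. For Zfp672, Zfp706, Zfp738, Zfp788, Zfp825 and Zfp985 no probe set passed, and those of Zfp788 had identical means and SDs.

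Some of the corepressor machinery that KRAB zinc finger proteins work through was lower in LiPS-50. Of its 20 measured genes, 7, 5 and 4 were lower in LiPS-50 and 0, 1 and 1 higher in the comparisons with LiPS-45, LiPS-57 and LiPS-47, with median differences of 0.13, 0.072 and 0.11 for the other line minus LiPS-50. Together these were 35%, 30% and 25% of the list. Over all genes, 9.1%, 8.59% and 8.44% were lower in LiPS-50 and 9.59%, 9.32% and 9.84% higher. Cbx1, Cbx5, Hdac1, Hdac2, Ehmt2, Dnmt1, Resf1, Chd3, Uhrf1, Morc3, Atf7ip and Smarcad1 passed in no comparison with LiPS-50. Dnmt3b, a de novo DNA methyltransferase, had means of 10.95, 10.87, 10.92 and 10.26 in LiPS-45, LiPS-57, LiPS-47 and LiPS-50 (1.62-fold, 1.53-fold and 1.59-fold lower in LiPS-50; limma adjusted p = 1.64e-05, 6.19e-05 and 2.59e-05). Dnmt3a and Setdb1 were also lower in all 3 comparisons, Dnmt3a at 8.74, 8.82, 8.81 and 8.39 and Setdb1 at 9.38, 9.37, 9.34 and 8.98. Trim28 was at 12.10, 12.12, 12.06 and 11.92 and passed against LiPS-45 (1.13-fold, limma adjusted p = 0.0344) and LiPS-57 (1.15-fold, 0.0187), with 0.0855 against LiPS-47. The only gene of the list past the threshold in the other direction was Zfp57, a KRAB zinc finger gene that protects imprinted methylation. It was higher in LiPS-50 than in LiPS-57 (1.20-fold, limma adjusted p = 0.0128) and LiPS-47 (1.24-fold, 0.00372).

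Zinc finger genes of pluripotent cells outside the number range were mixed. Of 18 measured, LiPS-50 was lower in 5, 5 and 4 and higher in 2, 2 and 2, against LiPS-45, LiPS-57 and LiPS-47. Together these were 38.9%, 38.9% and 33.3%, against 18.7%, 17.9% and 18.3% of all genes. Patz1, Zscan10, Zfp322a and Sall4 were lower in all 3, and Prdm14, which restrains de novo methylation in naive cells, was higher in all 3, with means of 5.64, 5.73, 5.61 and 6.34. Of 8 measured genes of the 2-cell-like state, a rare state of embryonic stem cells, Gm5662 was higher in LiPS-50 than in LiPS-45 (2.97-fold, limma adjusted p = 0.00312) and LiPS-57 (2.52-fold, 0.0082), Spz1 was lower than in LiPS-47 (1.21-fold, 0.036), and the other 6 passed in no comparison with LiPS-50.

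Set beside the 193 genes named Zfp1 to Zfp599, the 147 had similar shares past the threshold, and no difference between the sets was tested. The split of the 147 into higher and lower depended on the scale as given above, and other scales are not given for the 193. Among the 193, LiPS-50 was higher in 9 and lower in 30 against LiPS-45 (4.66% and 15.5%, beside 9.59% and 9.1% of all genes). It was higher in 7 and lower in 16 against LiPS-57 (3.63% and 8.29%, beside 9.32% and 8.59%). Against LiPS-47 it was higher in 10 and lower in 14 (5.18% and 7.25%, beside 9.84% and 8.44%). In all 3 comparisons 4 of the 193 were higher and 8 lower (2.07% and 4.15%, beside 6.75% and 5.38%). None passed in the pairs without LiPS-50, where 19, 22 and 8 had an unadjusted limma p under 0.05.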

How the data were processed

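Per the labels, biotin-labelled whole-transcript targets from total RNA of 4 lines were hybridised to 12 arrays. The deposited table holds linear intensity values. GCOS 1.4 is the tool in the submitters' processing notes; background correction, summarisation and normalization were not given in the sources used here. Levels were taken as log2(value + 1), a scale on which differences of dim genes come out smaller. Of all 35556, 6617 probe sets numbered below the lowest annotated identifier were treated as controls and left out. Symbols came from the array annotation, updated through RefSeq (GRCm38.p6), which matched 147 of the 148 genes.

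A limma 3.58.1 fit in R 4.3.3 of 4 line means (lmFit and eBayes, two-sided, Benjamini-Hochberg over 28939 probe sets, threshold 0.05, 8 residual and 4.06 prior degrees of freedom) gave the pairs and the F test. For competence, line was a random block (duplicateCorrelation; consensus 0.183). The fit was tested on simulated data. Background shares are over 19938 genes taken by their probe set of highest mean signal.

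The number range, the gene lists and the tests were chosen with earlier results of these data known. Named are genes past the threshold against LiPS-50 in all 3 comparisons, genes of known role chosen by name, the 3 strongest and 3 weakest probe sets, the neighbours of Zfp943 and up to 4 genes of a list. Zfp932, on the list of names, was not analysed here. Others, such as Zfp704, Zfp868, Zfp619, Zfp758 and the remaining cluster genes, were named after their values were seen. Of trophectoderm markers, 2 were higher and 1 lower in LiPS-50 in all 3 comparisons, and of endoderm markers also 2 and 1. No array pair shared over 0.607% of identical values. The number of arrays limits the precision. The alternatives tried were scale, pseudocount, a filter on dim probe sets, inclusion of the control block, the probe set per gene, symbols, a replicate block, a robust prior, single lines and single arrays.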

Additional observations from a re-analysis of the deposited data

How the results depend on the processing

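Counts are over the 147 tested genes, and shares of all genes under the alternatives are not given. The 53 named differences from LiPS-50 gave 1162 values under the alternatives, of which 159 missed the threshold and 0 changed sign; 28 of the 53 kept their call throughout. Those of Zfp980, Zfp600, Zfp640, Zfp750, Zfp608 and Zfp940 kept all 3 calls. With only the 2 compared lines in the limma fit, 7 of 21 named calls between LiPS-45 and LiPS-50 were lost. They were Zfp609, Zfp644, Zfp809, Zfp827, Zfp942, Zfp982 and Zfp991 (adjusted p = 0.0743 to 0.0929). Between LiPS-57 and LiPS-50, 6 of 18 were lost, Zfp609, Zfp647, Zfp704, Zfp821, Zfp827 and Zfp951 (0.0539 to 0.104). Between LiPS-47 and LiPS-50, 4 of 14 were lost, Zfp609, Zfp653, Zfp821 and Zfp882 (0.0505 to 0.126). The counts in the pairs without LiPS-50 were 0 under every alternative run. Between LiPS-45 and LiPS-50 the count was 19 with the 2 lines alone and 18 to 27 with 1 array left out; the ranges were 14 to 20 for LiPS-57 and 10 to 16 for LiPS-47 against LiPS-50. The F test gave 13 with the control block included, 0 without line LiPS-50 and 11 to 19 with 1 array left out. Competence gave 0 to 0 with 1 array left out and 13 with the spread between repeats as error and no line block, 6 higher and 7 lower, among 1789 probe sets.

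Replicate numbers did not pair the arrays: over 18 same-numbered pairs the correlations of deviations ran from -0.169 to 0.121, with 4 above 0.1, and 5 of 12 arrays were closest to their own number. The replicate block gave 25, 18 and 17 calls for LiPS-45, LiPS-57 and LiPS-47 against LiPS-50. With 3 arrays per line, small differences in dim probe sets are the least certain; 30 of the 148 genes lay below the 40th percentile of signal.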
